A study of Homo sapiens with 3 samples.

Results

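The genes described here are 10 targets of the hypoxia-inducible factors (HIFs) that lie outside glycolysis: BNIP3, BNIP3L, P4HA1, P4HA2, LOX, NDRG1, VEGFA, ADM, CA9 and KDM3A. They were chosen by symbol, with earlier results of these data known. All 10 were found among the 21572 genes of the deposited expression table. The series holds 3 RNA sequencing libraries from the human hepatoma cell line Hep-G2. One library came from cells carrying the control hairpin SHC002, which the series design calls a scramble. Each of the others came from a line with its own short hairpin RNA (shRNA) directed at FTO, sh#2 or sh#7, and the design ranks the knockdown as stronger in sh#7. FTO encodes an RNA demethylase that acts on N6-methyladenosine and uses oxygen and 2-oxoglutarate, as the HIF prolyl hydroxylases, the collagen prolyl hydroxylases and KDM3A do. All 3 cultures were at passage 21 in DMEM with serum and antibiotics; the labels give no oxygen level. Each FTO line carries 1 hairpin and each group held 1 library, so no value below has a replicate error, nothing was tested, and an effect of FTO cannot be told apart from an effect of a line.

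HIFs are transcription factors made of an oxygen-regulated alpha subunit and the constant partner ARNT. When oxygen is ample, prolyl hydroxylases of the EGLN family mark the alpha subunit for destruction by the VHL ubiquitin ligase. When oxygen is short, the alpha subunit escapes, pairs with ARNT and binds short DNA motifs near its targets. The proteins these targets encode clear mitochondria, modify collagen, recruit blood vessels and buffer acid, and liver cells use the pathway along the oxygen gradient of the lobule.

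Levels are given as FPKM, the fragments of a gene divided by its length in kilobases and by the library's mapped total. A difference is log2(FPKM + 1) of one library minus that of another, and 2-fold on this scale was the threshold for calling a gene higher or lower. The share of the reference level that a library held, in percent of FPKM, is given with an exact 95% interval on estimated fragments, which covers counting error only. FTO itself was at 9.02 FPKM in control cells, 5.29 FPKM in the sh#2 line and 2.55 FPKM in the sh#7 line, in the order of the labels. Depth was estimated at 42.5 M, 43.2 M and 42.1 M (mega) fragments in the control, sh#2 and sh#7, and the 10 genes had about 777 to 33152 estimated fragments each per library. The 11069 genes that averaged 1 FPKM or more over the libraries were compared, and all 10 hypoxia targets were among them, with at least 13.7 FPKM in every library. The median difference of all compared genes was 0.16 in sh#7 and 0.10 in sh#2 against control, and 0.05 in sh#7 against sh#2.

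All 10 genes were lower than in the control in both FTO lines, where 32.8% of all compared genes were lower in each. In sh#7 they held 27.6 to 76.3% of their control level, with a median of 51.5%, and in sh#2 they held 40.1 to 94.4%, with a median of 63.2%. In sh#7, 5 of the 10 (BNIP3, LOX, P4HA1, CA9 and VEGFA) were past 2-fold lower and 0 were past 2-fold higher, where 2.48% of all compared genes were lower and 2.35% higher by that measure. In sh#2, 1 of the 10 (LOX) was past 2-fold lower and 0 were higher, where 0.723% of all compared genes were lower and 0.506% higher. That 1 became 3, with BNIP3 and NDRG1, after median-of-ratios scaling of the libraries. Over the 10 genes the median difference was -0.94 in sh#7 and -0.64 in sh#2, or -1.09 and -0.75 relative to the median of all compared genes. Both lines were set against the same control library, so the values in sh#2 and sh#7 are given side by side and are not independent of each other. In bulk RNA, fewer cells of a kind and less RNA per cell cannot be told apart.

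**Figure D1:**
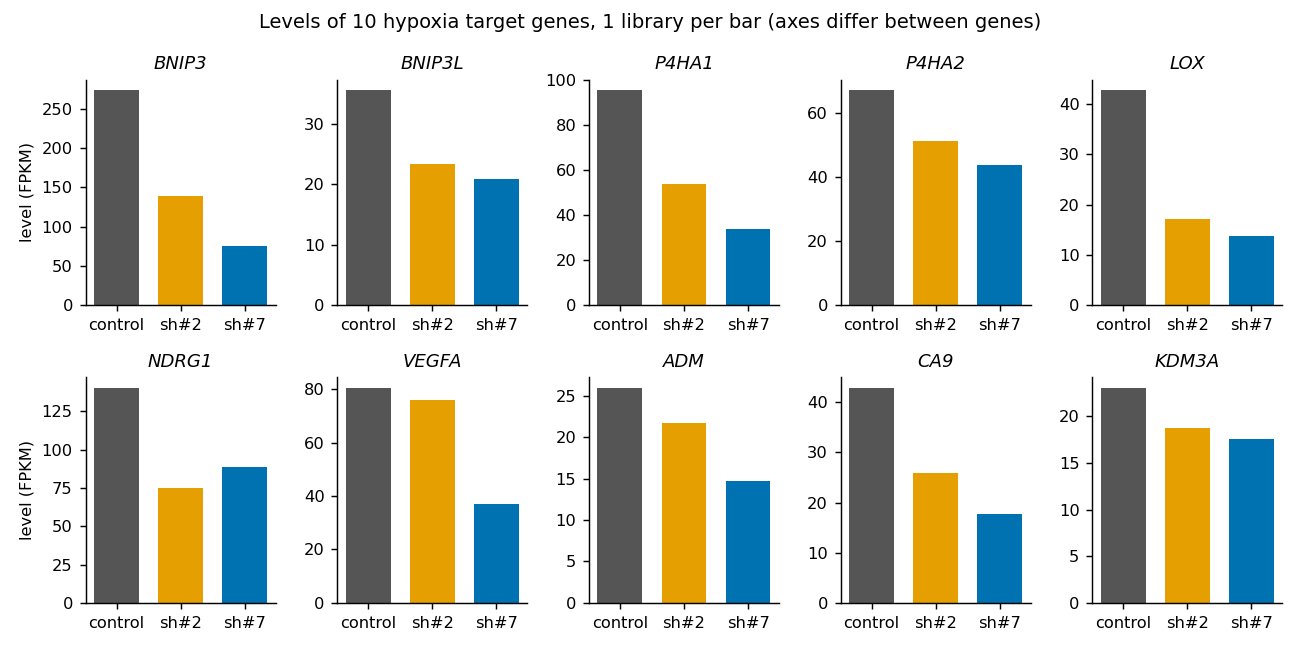
Level (FPKM) of each of the 10 hypoxia targets in the control (grey), sh#2 (orange) and sh#7 (blue), with 1 library per bar, no error bars and a separate axis for each gene. The control bar is the tallest in all 10 panels, and the sh#7 bar is the shortest in 9, with NDRG1 as the exception.

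Of the mitophagy receptors, BNIP3 had the largest difference of the 10 genes in sh#7, while in sh#2 LOX had the largest. BNIP3, an outer mitochondrial membrane protein that tethers LC3 and so marks mitochondria for autophagy, was at 273 FPKM in control cells, 139 FPKM in the sh#2 line and 75.2 FPKM in the sh#7 line. Its level was thus stepwise lower, at 51.1% (interval 50.2 to 52.0) of the control level with sh#2 and 27.6% (26.9 to 28.2) with sh#7. The log2 difference was -0.96 for sh#2 and -1.85 for sh#7, and only 67 of the 11069 compared genes, BNIP3 included, differed by as much or more in that direction in sh#7. BNIP3 was also the most abundant of the 10 in the control and in sh#2, and in sh#7 it came after NDRG1. GENCODE 29 lists 39 processed pseudogenes named after BNIP3, none of them a row of the table, so the share of reads placed on such copies is uncertain.

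BNIP3L, the close relative also called NIX that clears mitochondria from maturing red cells, was at 35.5 FPKM in control cells, 23.3 FPKM in the sh#2 line and 20.8 FPKM in the sh#7 line. Both FTO lines sat well under the control and close to each other. BNIP3L held 65.7% of the control level in sh#2 (60.9 to 70.9) and 58.6% in sh#7 (54.1 to 63.3). The ratio of BNIP3 to BNIP3L in FPKM was therefore 7.68 in control cells, 5.97 with sh#2 and 3.62 with sh#7, a narrowing gap between the paralogs. In GENCODE 29 BNIP3L overlaps a pseudogene on the opposite strand that is not a row of the table.

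The promoter of BNIP3 is shown because this gene differed most in sh#7. It is the RefSeq sequence on GRCh38.p14, chr10:131981924-131982173, minus strand, the 250 bases before the transcription start, read 5′ to 3′. Capitals mark the core of the hypoxia response element, searched as ACGTG and as GCGTG on both strands (CACGT and CACGC when read on the gene's strand).
BNIP3: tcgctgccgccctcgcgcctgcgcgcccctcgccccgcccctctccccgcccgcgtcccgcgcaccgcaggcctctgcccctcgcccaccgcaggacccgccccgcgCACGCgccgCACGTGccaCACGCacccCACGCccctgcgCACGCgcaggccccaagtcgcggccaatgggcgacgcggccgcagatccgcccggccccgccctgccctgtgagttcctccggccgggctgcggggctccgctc
This window held 2 matches of ACGTG, which overlap as a single palindrome read on both strands, and 4 matches of GCGTG, all within a stretch from base -143 to base -100 relative to the start. Of 35116 RefSeq promoter windows of the same length, 43.2% held at least 1 match of either motif and 0.6% held at least 6. A match is a description of letters and not evidence of a bound factor.

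The collagen prolyl 4-hydroxylase subunits, which form the catalytic alpha chains of the enzyme that hydroxylates procollagen, differed from each other in depth. P4HA1 was at 95.3 FPKM in control cells, 53.9 FPKM in the sh#2 line and 33.6 FPKM in the sh#7 line. The level was stepwise lower, at 56.6% of the control in sh#2 (54.9 to 58.3) and 35.2% in sh#7 (34.0 to 36.5), with log2 differences of -0.81 and -1.48. P4HA2 was at 66.9 FPKM in control cells, 51.2 FPKM in the sh#2 line and 43.7 FPKM in the sh#7 line. It held 76.6% of the control in sh#2 (73.9 to 79.4) and 65.4% in sh#7 (62.9 to 67.9), so the order of the libraries was the same but the distance was smaller. As a result P4HA1 was the more abundant alpha subunit in the control, with 58.8% of the FPKM of the pair, was nearly even with P4HA2 in sh#2 at 51.3%, and was the less abundant in sh#7 at 43.5%. The summed level of the pair was 162 FPKM in control cells, 105 FPKM in the sh#2 line and 77.3 FPKM in the sh#7 line. P4HA1 and P4HA2 each overlap an antisense gene in GENCODE 29 that is not a row of the table, and the sources used here do not say how strand was treated in counting.

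The promoters of these paralogs are shown because the subunits differed in depth. Both are RefSeq sequences on GRCh38.p14, minus strand, 250 bases before the start, with P4HA1 at chr10:73096867-73097116 and P4HA2 at chr5:132227092-132227341 and the same capitals.
P4HA1: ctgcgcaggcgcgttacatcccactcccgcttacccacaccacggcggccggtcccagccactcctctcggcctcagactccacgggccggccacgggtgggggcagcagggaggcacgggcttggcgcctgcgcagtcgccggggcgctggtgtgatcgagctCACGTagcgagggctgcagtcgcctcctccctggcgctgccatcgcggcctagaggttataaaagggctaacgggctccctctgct
P4HA2: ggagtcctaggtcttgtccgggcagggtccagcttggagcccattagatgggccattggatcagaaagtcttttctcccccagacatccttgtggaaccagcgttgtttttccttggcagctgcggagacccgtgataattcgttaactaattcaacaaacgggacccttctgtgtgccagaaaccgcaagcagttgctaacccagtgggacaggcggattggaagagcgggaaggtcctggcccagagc
The P4HA1 window held 1 match of ACGTG, on the other strand at bases -86 to -82, where 18.5% of all promoter windows held ACGTG. The P4HA2 window held 0 matches of either motif, which says only that these letters are not in this window.

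LOX encodes lysyl oxidase, the secreted copper enzyme that starts the cross-linking of collagen and elastin. It was at 42.7 FPKM in control cells, 17.1 FPKM in the sh#2 line and 13.7 FPKM in the sh#7 line. Both FTO lines were far under the control and near each other. LOX held 40.1% of the control in sh#2 (38.2 to 42.0), the lowest share of the 10 genes in that line, and 32.2% in sh#7 (30.5 to 33.9). The log2 differences were -1.27 and -1.57. RefSeq lists 3 starts of LOX; the 250 bases before the farthest upstream one, on GRCh38.p14 at chr5:122078260-122078509, minus strand, are shown because LOX was the gene past 2-fold in both lines.
LOX: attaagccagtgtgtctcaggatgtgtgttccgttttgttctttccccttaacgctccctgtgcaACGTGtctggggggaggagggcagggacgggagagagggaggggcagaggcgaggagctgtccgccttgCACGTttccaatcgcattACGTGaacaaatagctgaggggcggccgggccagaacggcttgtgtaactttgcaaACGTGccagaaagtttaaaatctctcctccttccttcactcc
This window held 4 matches of ACGTG and 0 of GCGTG. At least 4 matches of either motif occurred in 3.2% of the promoter windows.

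CA9 encodes carbonic anhydrase IX, a membrane enzyme that hydrates carbon dioxide outside the cell and is widely used as a marker of tumour hypoxia. It was at 42.8 FPKM in control cells, 25.9 FPKM in the sh#2 line and 17.8 FPKM in the sh#7 line. Its level was stepwise lower, at 60.6% of the control in sh#2 (57.0 to 64.4) and 41.5% in sh#7 (38.7 to 44.5), with log2 differences of -0.70 and -1.22. The 250 bases before its RefSeq start, on GRCh38.p14 at chr9:35673678-35673927, plus strand, are shown because CA9 has a match very close to the start.
CA9: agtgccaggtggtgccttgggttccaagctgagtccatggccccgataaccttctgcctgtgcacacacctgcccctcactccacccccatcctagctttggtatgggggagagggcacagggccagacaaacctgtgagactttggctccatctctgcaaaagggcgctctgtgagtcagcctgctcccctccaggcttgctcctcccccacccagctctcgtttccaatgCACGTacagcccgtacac
The window held 1 match of ACGTG, on the other strand at bases -18 to -14. It was picked for display by this match, and 18.5% of all promoter windows held ACGTG.

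**Figure D2:**
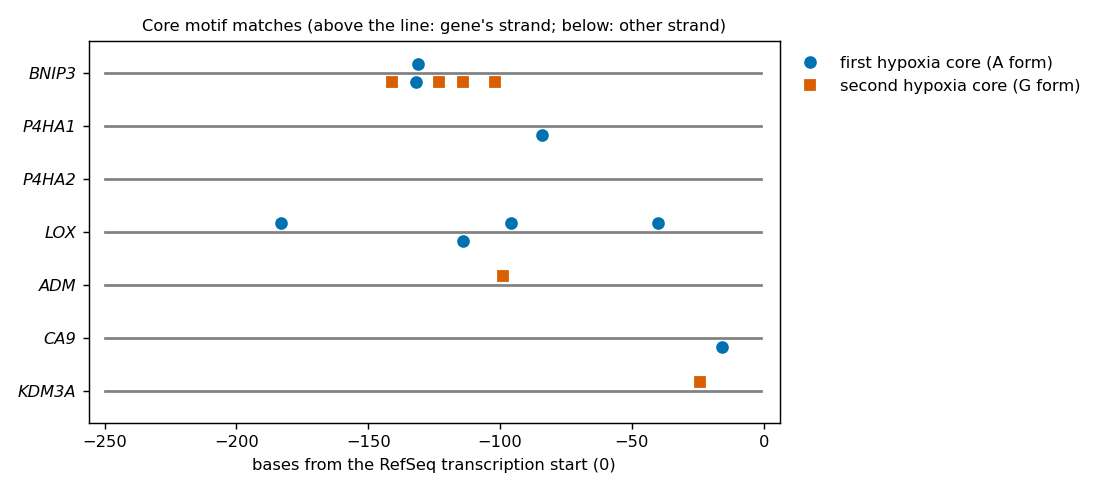
Positions of the 2 core motif forms (circles: ACGTG; squares: GCGTG) in the 250 bases before the RefSeq start of 7 hypoxia targets, in bases from the start, above the line on the gene's strand and below it on the other. BNIP3 has 6 matches within a short stretch, LOX has 4 spread along the window, P4HA2 has 0 and the other 4 genes have 1 each.

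Promoter windows were matched for 7 of the 10 genes, and 6 of them held at least 1 match. Of all 35116 RefSeq promoter windows, 43.2% held at least 1 match of either motif. Of the windows not printed, those of ADM (chr11:10304823-10305072) and KDM3A (chr2:86441121-86441370) each held 1 match of GCGTG and 0 of ACGTG. BNIP3L, NDRG1 and VEGFA were not matched.

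For the secreted vascular factors, sh#2 was closer to the control than to sh#7. VEGFA, the main growth factor of blood vessel endothelium, was at 80.4 FPKM in control cells, 75.8 FPKM in the sh#2 line and 37.1 FPKM in the sh#7 line. Control and sh#2 were nearly level, at 94.4% (90.2 to 98.8), while sh#7 was apart at 46.1% of the control (43.5 to 48.8). ADM, which encodes the vasodilator peptide adrenomedullin, was at 25.9 FPKM in control cells, 21.7 FPKM in the sh#2 line and 14.7 FPKM in the sh#7 line. ADM held 83.8% of the control in sh#2 (77.6 to 90.7) and 56.8% in sh#7 (52.0 to 62.1), again with the larger step in sh#7. VEGFA overlaps an antisense gene in GENCODE 29 that is not a row of the table, with the same limit as for P4HA1.

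NDRG1, a cytoplasmic protein induced by many stresses, was the gene that did not follow the order of FTO. It was at 140 FPKM in control cells, 74.8 FPKM in the sh#2 line and 88.7 FPKM in the sh#7 line. Its lowest level was in sh#2, at 53.4% of the control (51.9 to 55.0), against 63.4% in sh#7 (61.6 to 65.2). KDM3A, a JmjC histone demethylase that removes methyl groups from lysine 9 of histone H3, differed least in sh#7. It was at 23.0 FPKM in control cells, 18.7 FPKM in the sh#2 line and 17.6 FPKM in the sh#7 line. These are 81.2% of the control in sh#2 (77.8 to 84.8) and 76.3% in sh#7 (73.0 to 79.7).

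Compared directly, sh#7 was lower than sh#2 for 9 of the 10 genes and higher for NDRG1, where 42.7% of all compared genes were lower. One gene, VEGFA, was past 2-fold lower, at 48.9% of the sh#2 level (46.1 to 51.7), and 0 were past 2-fold higher, where 1.52% of all compared genes were lower and 1.45% higher. BNIP3 was next at 53.9% (52.6 to 55.3), followed by P4HA1 at 62.3%, ADM at 67.8% and CA9 at 68.5%. LOX, P4HA2, BNIP3L and KDM3A were at 80.2, 85.3, 89.1 and 93.9% of sh#2, and NDRG1 was at 119% (115 to 122). Over the 10 the median was -0.41, or -0.46 relative to all compared genes. By these values, the larger step of VEGFA and ADM lay between sh#2 and sh#7, and that of LOX, BNIP3L, P4HA2, KDM3A and NDRG1 lay between the control and sh#2. BNIP3, P4HA1 and CA9 had steps of more even size.

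**Figure D3:**
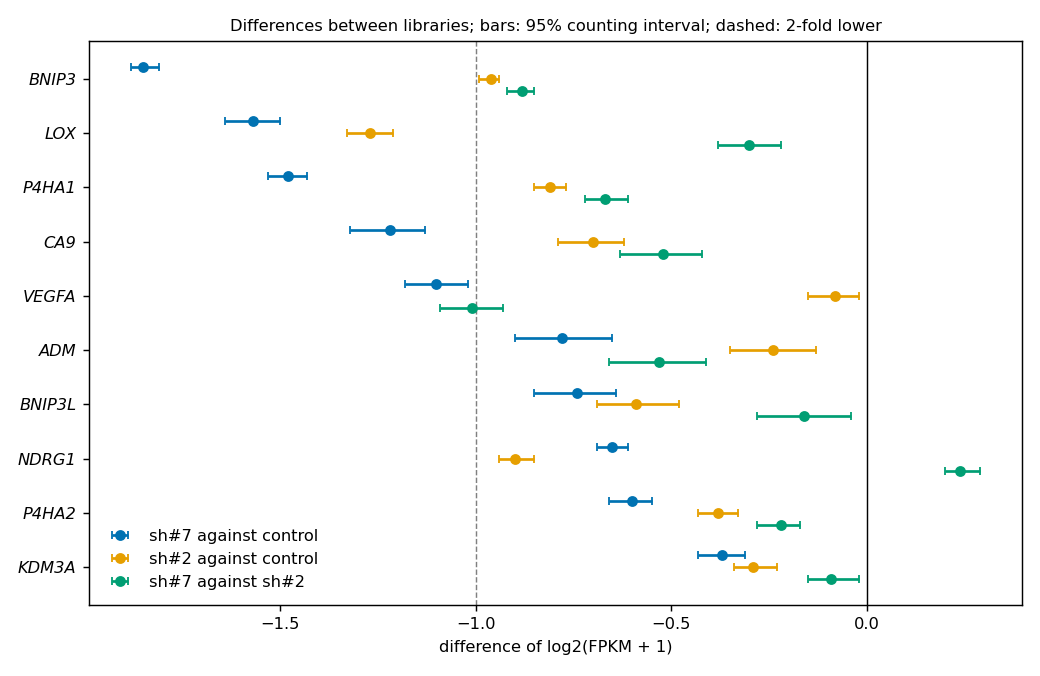
Difference of log2(FPKM + 1) for each of the 10 genes in sh#7 against control (blue), sh#2 against control (orange) and sh#7 against sh#2 (green), with 95% counting intervals; the dashed line is 2-fold lower. BNIP3 is farthest left at -1.85 in sh#7, VEGFA is near 0 in sh#2, and NDRG1 is the only gene right of 0 in any comparison.

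Other HIF targets outside glycolysis, a list of 37 genes, were mostly lower too. Of its 30 compared members, 8 were past 2-fold lower and 1 (VLDLR) higher in sh#7, and 1 (EGLN3) was lower and 0 were higher in sh#2. Over all compared genes, 2.48% were lower and 2.35% higher in sh#7, and 0.723% were lower and 0.506% higher in sh#2. The list's median was -0.49 for sh#7 and -0.21 for sh#2, and 28 of 30 lay below the median of all compared genes in each line. EGLN3, a HIF prolyl hydroxylase that is itself induced by HIF, was at 5.66 FPKM in control cells, 2.07 FPKM in the sh#2 line and 1.77 FPKM in the sh#7 line. INSIG2, a brake on cholesterol synthesis, was at 108, 59.2 and 49.3 FPKM in the same order, and TF, which encodes the iron carrier transferrin, was at 3471, 2379 and 1926 FPKM. Between the FTO lines, EPO, ANKRD37 and FAM162A were past 2-fold lower in sh#7 than in sh#2 and VLDLR was higher, where 1.52% and 1.45% of all compared genes were. These genes were named after their values were seen. EPO, which encodes erythropoietin, was at 8.57 FPKM in control cells, 9.63 FPKM in the sh#2 line and 1.99 FPKM in the sh#7 line, a profile with its step in sh#7 as for VEGFA.

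The glycolytic HIF targets gave values of similar size. Of 21 compared members, 7 were past 2-fold lower in sh#7 and 0 in sh#2, and 0 were higher in either. Over all compared genes, 2.48% were lower and 2.35% higher in sh#7, and 0.723% were lower and 0.506% higher in sh#2. They had a median difference of -0.81 in sh#7 and -0.49 in sh#2, against -0.94 and -0.64 for the 10 genes outside glycolysis. The difference between these lists was not tested, and both were chosen with earlier results of these data known.

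HIF subunits and oxygen sensors had a median difference of 0.36 in sh#7 and 0.12 in sh#2, or 0.20 and 0.02 relative to all compared genes, and 3 and 4 of its 8 compared members lay below the median of all compared genes. HIF1A, the alpha subunit HIF-1alpha, was at 29.5 FPKM in control cells, 38.3 FPKM in the sh#2 line and 59.8 FPKM in the sh#7 line, or 130% of the control in sh#2 (125 to 135) and 203% in sh#7 (196 to 210). Its log2 difference in sh#7 was 1.00 after rounding and just under the threshold; it was 1.02, past it, with a pseudocount of 0.1 FPKM and 0.83 after median-of-ratios scaling. EPAS1, the alpha subunit HIF-2alpha, was at 54.7, 61.0 and 73.0 FPKM, and EGLN2, a prolyl hydroxylase, at 18.4, 24.9 and 28.0 FPKM. Of 8 compared members, EGLN3 alone was past 2-fold lower, in both lines, and 0 were higher. Shares of all compared genes were 2.48% lower and 2.35% higher in sh#7, and 0.723% lower and 0.506% higher in sh#2. The mRNA of both alpha subunits was highest in sh#7, where 9 of the 10 target genes were lowest. HIF protein was not measured.

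**Figure D4:**
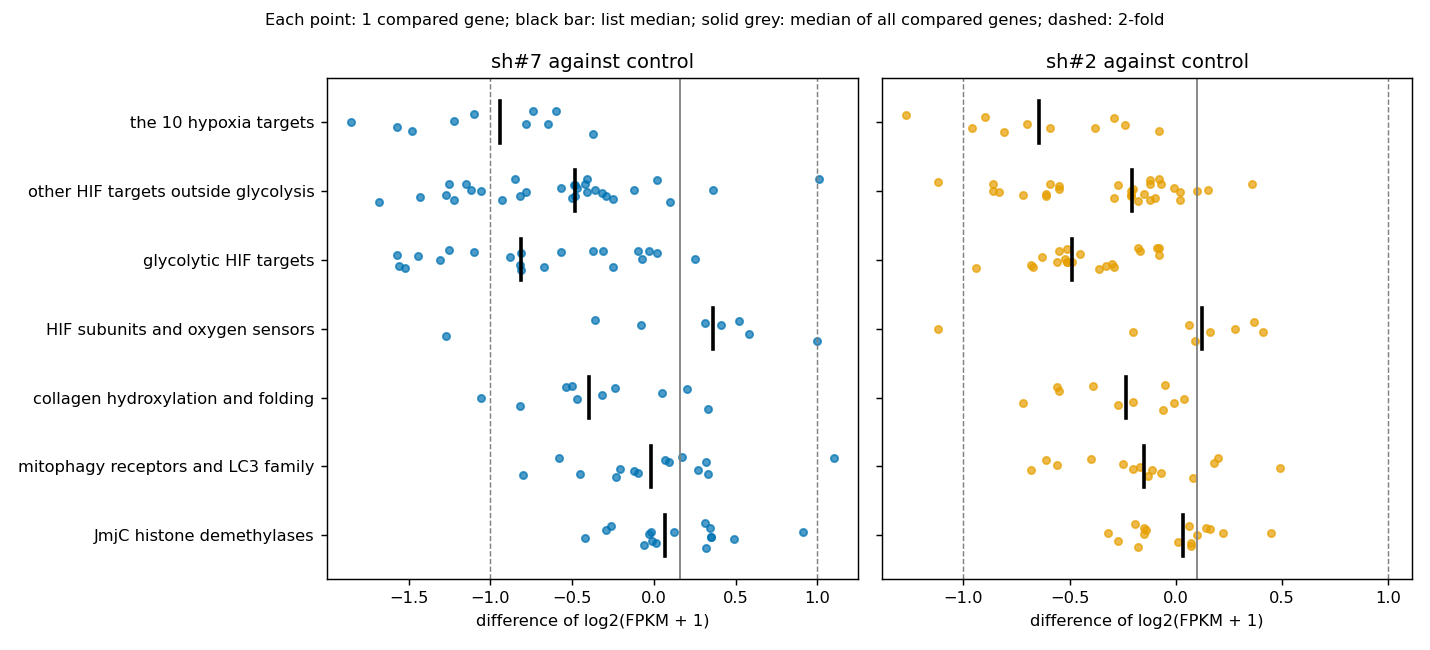
Difference of log2(FPKM + 1) for each compared gene of 7 lists (points, with vertical jitter), in sh#7 against control (left) and sh#2 against control (right); the black bar is the list median, the solid grey line the median of all compared genes and the dashed lines are 2-fold. Of the 7 lists shown, the 10 hypoxia targets have the lowest median in both panels (-0.94 and -0.64). The HIF subunits and oxygen sensors have the highest of the 7 (0.36 and 0.12). The hepatocyte markers, not shown, had medians of -0.89 in sh#7 and -0.08 in sh#2. All lists were chosen with earlier results of these data known, so the order of the medians may reflect that choice.

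Other genes of mitophagy were read beside BNIP3 and BNIP3L. Of 14 compared mitophagy receptors and LC3 family genes, 0 were past 2-fold lower in either line and 1 was higher, SQSTM1 in sh#7. Among all compared genes, 2.48% were lower and 2.35% higher in sh#7, and 0.723% were lower and 0.506% higher in sh#2. A count of 0 in a list of this size lies near those shares. SQSTM1, the autophagy adaptor p62, was at 68.5 FPKM in control cells, 96.5 FPKM in the sh#2 line and 148 FPKM in the sh#7 line, a difference of 1.10 in sh#7 that came to 0.92 to 0.97 under the 3 rescalings tried (median-of-ratios, upper-quartile, and subtraction of the median of all compared genes), short of 2-fold. NBR1, another autophagy adaptor, was at 45.6, 28.2 and 25.8 FPKM in the same order, and OPTN, a mitophagy adaptor, at 23.2, 14.9 and 15.2 FPKM. PHB2, an inner membrane mitophagy receptor and the most abundant of the list, was at 185, 210 and 195 FPKM. The median difference of the list was -0.02 for sh#7 and -0.15 for sh#2, or -0.17 and -0.26 relative to all compared genes, and 9 and 11 of its 14 members lay below the median of all compared genes.

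Of 10 compared genes of collagen hydroxylation and folding other than P4HA1 and P4HA2, 1 was past 2-fold lower in sh#7 (PLOD2), 0 were lower in sh#2 and 0 were higher in either line. Among all compared genes, 2.48% were lower and 2.35% higher in sh#7, and 0.723% were lower and 0.506% higher in sh#2. PLOD2, a lysyl hydroxylase, was at 132 FPKM in control cells, 89.4 FPKM in the sh#2 line and 62.5 FPKM in the sh#7 line, and PLOD1 was at 178, 108 and 101 FPKM. P4HB, the beta subunit that partners P4HA1 and P4HA2 and is also a disulfide isomerase, was at 1456, 1114 and 1027 FPKM, many times the level of either alpha subunit in every library. The median difference of the list was -0.39 for sh#7 and -0.23 for sh#2, or -0.55 and -0.34 relative to all compared genes. PLOD1 and PLOD2 were also counted among the other HIF targets, as were EGLN1, EGLN3, PDGFB, KDM4B and KDM4C of the other lists. FLT1, CA12 and LOXL2 were shared between lists as well but were not compared. Of 4 other lysyl oxidase genes 1 was compared, LOXL4, at 10.5 FPKM in control cells, 9.50 FPKM in the sh#2 line and 15.7 FPKM in the sh#7 line.

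Of the receptor genes for the vascular factors, FLT1, KDR, FLT4 and CALCRL were low or at 0. They too were named after their values were seen. The VEGF receptor genes FLT1, KDR and FLT4 were all under 1 FPKM in every library, and CALCRL, the adrenomedullin receptor, was listed at 0 in all 3. Of 14 angiogenic ligand and receptor genes, 5 were compared: 0 were past 2-fold lower, and 2 (NRP2 and PDGFA) in sh#7 and 1 (NRP2) in sh#2 were higher. Among all compared genes, 2.48% were lower and 2.35% higher in sh#7, and 0.723% were lower and 0.506% higher in sh#2. NRP2, a co-receptor of VEGF proteins and semaphorins, was at 1.14 FPKM in control cells, 4.84 FPKM in the sh#2 line and 6.51 FPKM in the sh#7 line. PDGFA, a platelet-derived growth factor chain, was at 1.18, 2.24 and 4.95 FPKM, PDGFB at 8.27, 4.10 and 8.37 FPKM, and VEGFB, a VEGFA relative, at 41.8, 39.8 and 39.4 FPKM. Of 6 genes of the adrenomedullin system 2 were compared, RAMP2 at 9.63, 8.08 and 6.72 FPKM and ADM2 at 2.89, 3.96 and 2.48 FPKM, and neither was past 2-fold.

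CA9 was the most abundant carbonic anhydrase among those examined in every library. Of 11 others 3 were compared, with 0 past 2-fold against the control; with a pseudocount of 0.1 FPKM, CA14 (-1.11) and CA5A (-1.17) passed it in sh#7, and CA5A also passed it under the 3 rescalings (-1.06 to -1.11). CA5A, a mitochondrial enzyme, was at 6.11 FPKM in control cells, 8.49 FPKM in the sh#2 line and 2.67 FPKM in the sh#7 line, which was past 2-fold lower in sh#7 than in sh#2. CA13 was at 1.27, 1.86 and 1.87 FPKM and CA14 at 1.75, 0.860 and 0.757 FPKM. Of 16 JmjC histone demethylases besides KDM3A, 0 were past 2-fold in either line, and the median was 0.07 in sh#7 and 0.03 in sh#2. With a pseudocount of 0.1 FPKM, KDM4A came to 1.01 in sh#7. Among all compared genes, 2.48% were lower and 2.35% higher in sh#7, and 0.723% were lower and 0.506% higher in sh#2. Counts of 0 in lists this small lie near those shares. KDM4A was at 5.92, 8.46 and 12.0 FPKM, KDM4B, another HIF target, at 8.24, 6.67 and 5.92 FPKM, KDM6B at 4.70, 5.11 and 6.99 FPKM and KDM2A at 17.2, 19.0 and 21.7 FPKM. Of the 3 other NDRG genes 0 were past 2-fold against the control, with NDRG2 at 47.8, 37.4 and 30.9 FPKM, NDRG3 at 24.5, 22.1 and 31.1 FPKM and NDRG4 at 3.88, 2.29 and 5.40 FPKM.

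The genes nearest to the median of the 10 in their differences from the control were sought among 8154 genes that averaged 5 FPKM or more. The nearest 8 by Euclidean distance over both differences were TOB1, MAFF, SLC19A2, SLC26A6, LOC100507567, ESPN, UNC93A and MOGAT3, at distances of 0.030 to 0.061. TOB1, an antiproliferative regulator, was at 66.0 FPKM in control cells, 42.7 FPKM in the sh#2 line and 33.7 FPKM in the sh#7 line, and MAFF, a small MAF transcription factor, was at 16.2, 10.3 and 8.14 FPKM. The likeness rests on 3 libraries.

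Hepatocyte and other cell type markers were read beside these results. All 10 hepatocyte markers were compared, and 5 were past 2-fold lower in sh#7 and 2 in sh#2, where 2.48% and 0.723% of all compared genes were. The summed level of these markers was 17204 FPKM in control cells, 13661 FPKM in the sh#2 line and 7234 FPKM in the sh#7 line. Such a sum is weighted towards the most abundant markers. The median difference of the list was -0.89 in sh#7 and -0.08 in sh#2, or -1.05 and -0.18 relative to all compared genes. In sh#7, 9 of the 10 were lower than in the control, and in sh#2 5 were. AFP, alpha-fetoprotein, was at 961, 294 and 15.7 FPKM, TTR, transthyretin, at 61.1, 26.6 and 3.43 FPKM, APOA2, an apolipoprotein, at 6168, 3424 and 2877 FPKM and ALB, albumin, at 5468, 5501 and 1947 FPKM. The part of this shift in the hypoxia target values was not tested. The 6 endothelial markers summed to 0.216 to 0.329 FPKM per library, with TEK listed at 0. Of 8 fibroblast and stellate markers, COL1A2, COL3A1, DCN and LUM were listed at 0 in all 3 libraries, and the sum of 35.4 to 52.7 FPKM was nearly all ACTA2, while PDGFRB was at 3.76, 1.69 and 0.616 FPKM. Of 7 blood and immune markers, PTPRC, CD3E and HBB were listed at 0, and LYZ, lysozyme, was at 3216, 1321 and 297 FPKM, with CD68 at 39.3, 30.8 and 23.3 FPKM.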

How the data were processed

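RNA was sequenced from 3 Hep-G2 cultures, 1 library per group, assigned by title. The authors deposited 1 table of FPKM values. The submitters' processing notes list Cufflinks 2.2.1, STAR 2.4.0j, HTSeq and the build hg19, without the role of each. From it, differences of log2(FPKM + 1) were computed for genes averaging 1 FPKM or more; the pseudocount understates changes of low genes. With 1 library per group no test was run. Depth came from the level of 1 fragment in low genes with a single transcript over 800 nt in GENCODE 29 (GRCh38), and from ratios of low genes between libraries. Fragments per gene used the median basic transcript length and are approximate. Intervals are Clopper-Pearson.

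The 10 genes and all lists were chosen with earlier results of these data known. Named genes were FTO, the 10, per list the 3 with the largest mean difference and the most abundant, and the 8 nearest genes; others are marked or are counts of 5 or fewer spelled out. Some genes the rule names are not reported here. Alternatives were a pseudocount of 0.1, a minimum mean of 5 or none, median-of-ratios and upper-quartile scaling, subtraction of the median of all genes, and 1.5-fold. Promoters are from RefSeq on GRCh38.p14. The calculations were tested on simulated data. Python 3.11.15, pandas 2.3.3, scipy 1.17.1 and matplotlib 3.10.9 were used.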

Additional observations from a re-analysis of the deposited data

Results flagged for a closer look

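Among the named genes, 5 lay above the control in one FTO line and below it in the other, with counting intervals clear of 0 in both lines and opposite signs also under 3 rescalings (median-of-ratios, upper-quartile, and subtraction of the median of all genes). The difference between the lines was not tested, and each line has 1 library. LOXL4, a relative of LOX, had log2(FPKM + 1) differences from the control of 0.54 (sh#7) and -0.13 (sh#2). CA5A, a mitochondrial carbonic anhydrase, differed by -0.95 in sh#7 and 0.42 in sh#2. NDRG3 and NDRG4, relatives of NDRG1, differed by 0.33 and 0.39 in sh#7 and by -0.14 and -0.57 in sh#2. ACTA2, a smooth muscle actin, differed by 0.35 in sh#7 and -0.25 in sh#2. None of the 10 hypoxia targets was among them.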

How the results depend on the processing

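No paired analysis was possible because there is 1 library per group, which also left no replicate to omit. All 180 values of the 10 hypoxia targets under the alternatives kept their sign. A changed minimum mean leaves a gene's difference as it was, so the values under those settings could not change. Under rescaling 60 values left their counting interval: 22 of 30 with median-of-ratios scaling, 18 of 30 with upper-quartile scaling and 20 of 30 with subtraction. With a pseudocount of 0.1 FPKM, 0 of 30 did. Of the 10 genes, the 1 past 2-fold lower in sh#2 became 3 under median-of-ratios scaling and 2 under upper-quartile scaling or with the median of all genes subtracted. At 1.5-fold, 9 were lower in sh#7, 6 in sh#2 and 3 in sh#7 against sh#2. The median of the 10 in sh#7 was -1.11, -1.06 and -1.09 under median-of-ratios scaling, upper-quartile scaling and subtraction, and in sh#2 -0.76 under the first and -0.75 under the last. With a pseudocount of 0.1, FTO was at -1.78 in sh#7 against control and -1.02 against sh#2, which follows from its low level. Over all genes, the 260 higher and 275 lower in sh#7 became 194 and 373 under median-of-ratios scaling (34.2% higher against 48.6%), and the 56 and 80 in sh#2 became 47 and 106 (30.7% against 41.2%); upper-quartile scaling gave 38.7% and 32.9%, and subtraction 33.5% and 30.0%. With a pseudocount of 0.1, 394 were higher in sh#7, 106 higher and 138 lower in sh#2, and 252 higher in sh#7 against sh#2 (161 as reported); at a minimum of 5 FPKM these were 146, 24, 49 and 82. At 1.5-fold, higher and lower genes numbered 1064 and 684 for sh#7, 295 and 301 for sh#2, and 569 and 504 for sh#7 against sh#2 (161 and 168 as reported). Counting depth limits low genes such as CA13 and NRP2 more than the 10.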
